A study of Glycine max with 4 samples.

Results

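Genes of the root nodule symbiosis and a duplicate gene were followed in soybean shoot tips by RNA sequencing. The 8 members, of 56044 genes in the count table, were taken by their gene identifiers, with no threshold on a measured value. The receptor members were NARK (Glyma.12G040000), its duplicate CLV1A (Glyma.11G114100), NFR1a (Glyma.02G270800) and NFR5a (Glyma.11G063100). The other 4 members were the leghemoglobins Glyma.10G199100, Glyma.10G199000, Glyma.10G198800 and Glyma.20G191200. The names come from the list by which the genes were chosen, because the deposited files give identifiers only. A RefSeq table of another soybean assembly holds NARK on chromosome 12 and CLV1A and NFR5A on chromosome 11, the chromosomes in the identifiers used here, but 0 of its entries could be matched to an identifier.

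Soybean forms root nodules with rhizobia, soil bacteria that fix nitrogen inside the nodule. The LysM receptor kinases NFR1 and NFR5 act together in roots to perceive the Nod factors that rhizobia secrete. NARK, a leucine-rich repeat receptor kinase related to CLAVATA1 of Arabidopsis, works in the shoot: it perceives peptide signals sent up from nodulating roots and limits nodule number, so that plants without it form too many nodules. Leghemoglobins bind oxygen in infected nodule cells and are among the most abundant proteins of a mature nodule, which makes their transcripts markers of nodule tissue.

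Each of the 4 libraries came from 1 plant of cultivar Thorne, grown in a greenhouse for 1 month, and from a shoot tip of 5 cm with immature trifoliate leaves. The tagged plants T162821 and T162822 (tagged 1 and tagged 2, n = 2) were transgenic and carried mmPing20F, an activation tag built from the rice transposable element mPing, at chromosome 8 position 2785626. The untagged plants (n = 2) lacked that insertion. One of them, T162845 (untagged 1, spelled T1622845 in the design text and taken as the same plant), was transgenic and carried the transposase construct, and the other (untagged 2) was an untransformed Thorne plant. The labels do not say whether any plant was inoculated with rhizobia. The tagged plants carried the tag at the same position, so they count as plants of 1 insertion and not as independent insertions. Library totals ran from 27900266 to 49210060 counts. The untransformed library stood apart from the other 3: it differed by over 2-fold from each of them at 34.4% to 37.5% of genes that averaged 50 or more normalized counts in the pair, against 1.58% to 3.23% among the transgenic plants. Normalized counts are reads divided by a size factor per library. Markers of shoot or leaf tissue could not be checked, since their identifiers are not paired with names.

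The receptor pair of the CLAVATA1 class was detected in every plant, and the other 6 members were at or near 0. NARK, the shoot regulator of nodule number, was 0.0527 to 0.207 times as high in the 3 transgenic plants as in the untransformed plant. CLV1A was 0.417 to 0.773 times as high in them, a difference that did not pass the test.

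NARK had 63, 49 and 14 reads in tagged 1, tagged 2 and the transgenic untagged plant, against 240 reads in the untransformed plant. As normalized counts these were 42.5, 58.4 and 14.9 in the transgenic plants, against 282 in the untransformed plant. The 3 transgenic plants thus lay below the untransformed plant without overlap, which held at 43.3% of tested genes (and the reverse at 42.4%), and the lowest of them was the untagged one. CLV1A had 82, 86 and 53 reads in tagged 1, tagged 2 and the transgenic untagged plant, against 113 reads in the untransformed plant. Its normalized counts were 55.3, 103 and 56.2 in the transgenic plants, against 133 in the untransformed plant. The order of the plants was thus headed by the untransformed plant for both receptors, but CLV1A in tagged 2 came close to it.

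**Figure D1:**
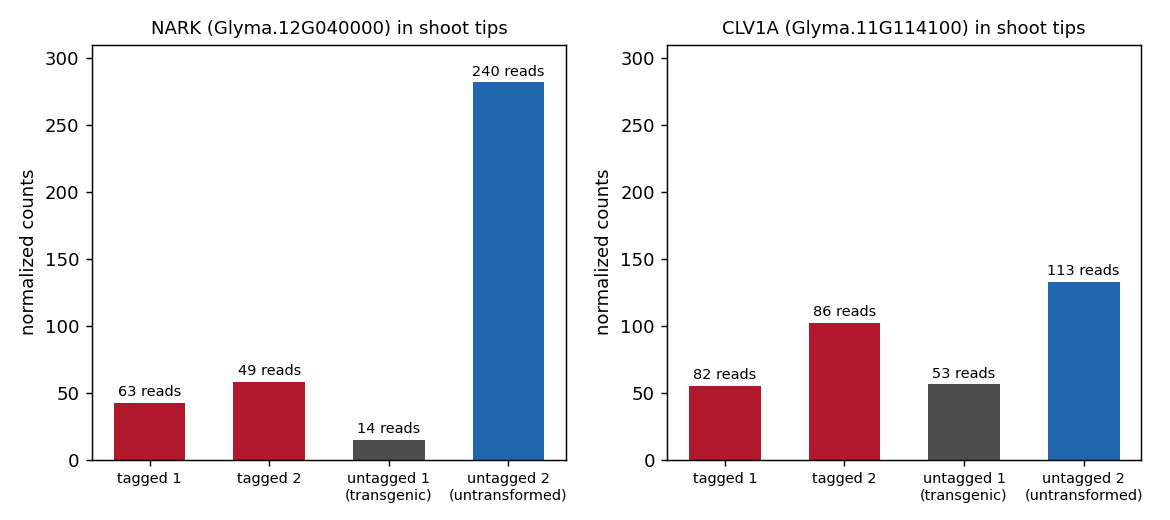
Normalized counts (vertical axis) of NARK and CLV1A in each of the 4 plants, 1 bar per library, with the raw reads above each bar. NARK stays at or under 58.4 in the transgenic plants, against 282 in the untransformed plant, while CLV1A runs from 55.3 to 133.

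Between pairs of plants, the ratio of NARK levels can be set against counting error. Tagged 1 was at 0.727 times the NARK level of tagged 2 (95% interval 0.493 to 1.08), so these neighbours in the order did not differ beyond counting error. Tagged 1 and tagged 2 were 2.86-fold (1.59 to 5.53) and 3.93-fold (2.14 to 7.71) above the transgenic untagged plant. Relative to the untransformed plant, NARK was at 0.151 times its level in tagged 1 (0.112 to 0.2), 0.207 times in tagged 2 (0.149 to 0.283) and 0.0527 times in the transgenic untagged plant (0.0284 to 0.0902). Differences at least as large, in either direction, were found in these pairs at 5.37%, 9.2% and 2.36% of genes that averaged 50 or more normalized counts, as NARK did there. The intervals cover counting error only, and reads from amplified libraries are not independent molecules.

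For CLV1A, tagged 1 and the transgenic untagged plant did not differ beyond counting error, with a ratio of 0.983 (0.688 to 1.42). Tagged 2 was 1.82-fold above the transgenic untagged plant (1.28 to 2.62), and tagged 1 was at 0.539 times the level of tagged 2 (0.394 to 0.739). The tagged plants thus differed from each other beyond counting error in CLV1A. Relative to the untransformed plant, CLV1A was at 0.417 times in tagged 1 (0.31 to 0.559), 0.773 times in tagged 2 (0.577 to 1.03) and 0.424 times in the transgenic untagged plant (0.3 to 0.593). Tagged 2 and the untransformed plant, neighbours in the order, were therefore not separated by counting error. Among genes that averaged 50 or more normalized counts in the pair, differences from the untransformed plant at least as large, in either direction, were common. They were found at 26.4% for tagged 1, 71.4% for tagged 2 and 29.8% for the transgenic untagged plant. Between tagged 1 and tagged 2 the share was 2.25%.

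Reads of the pair can also be compared within a library, which needs no scaling between libraries. NARK made up 43.4% (exact Clopper-Pearson 95% interval 35.2 to 51.9) of the 145 reads of NARK and CLV1A in tagged 1, 36.3% (28.2 to 45.0) of 135 reads in tagged 2 and 20.9% (11.9 to 32.6) of 67 reads in the transgenic untagged plant, against 68% (62.8 to 72.8) of 353 reads in the untransformed plant. The interval of the untransformed plant lay above those of the other 3 plants. Among these, the interval of tagged 1 lay above that of the transgenic untagged plant, and that of tagged 2 overlapped both. The intervals cover counting error only. The share depends on the lengths of the 2 genes, which were not available, so it is read across plants and not as a ratio of transcripts. NARK and CLV1A are related genes, and reads that match both could have been lost or assigned to either. The setting used for such reads is not given in the sources used here.

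**Figure D2:**
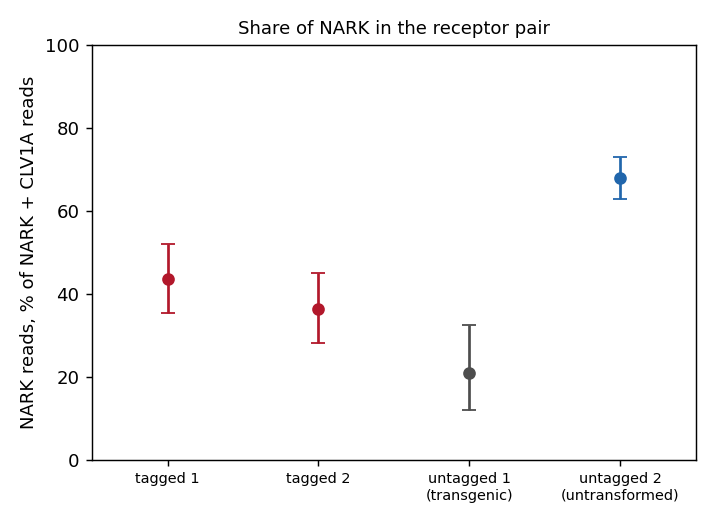
NARK reads as a percentage of the reads of NARK and CLV1A together (vertical axis) in each plant, with exact 95% binomial intervals that cover counting error only. The transgenic plants lie between 20.9% and 43.4%, against 68% in the untransformed plant.

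The comparison of the series' design asks which genes differ in plants that carry the tag. NARK averaged 50.4 ± 11.3 normalized counts in tagged plants and 148 ± 189 in untagged plants (SD, n = 2 each). CLV1A averaged 78.9 ± 33.4 in tagged plants and 94.5 ± 54.1 in untagged plants. The tagged values of NARK lay between the 2 untagged values, and those of CLV1A overlapped the untagged range too. With edgeR's quasi-likelihood test, NARK had a log2 fold change of -1.56 ± 1.34 (SE, 95% interval -5.18 to 2.06, adjusted p = 0.947). CLV1A had -0.27 ± 0.64 (-1.99 to 1.46) with an edgeR adjusted p of 0.956. Of the 8 members, 2 passed the filter on low counts and 0 were called, where 0% of all 38824 tested genes were called higher and 0% lower at an adjusted p of 0.05. At an unadjusted p under 0.05, edgeR gave 364 genes higher (0.938%) and 80 lower (0.206%) and no member, as NARK and CLV1A had unadjusted p of 0.305 and 0.698. At an adjusted p of 0.05, DESeq2 called 4 genes higher and 15 lower and no member. The direction rested on the untransformed plant: without it, as described next, both log2 fold changes turned positive. Without tagged 1 that of CLV1A was 0.13. With the untransformed plant as the only untagged one, NARK was at -2.48 ± 0.30 with an edgeR adjusted p of 9.3e-04. In that fit 25.6% of 40640 tested genes were called lower and 23.8% higher, and its spread comes from the 2 tagged plants alone.

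Among the 3 transgenic plants, NARK and CLV1A were both higher on average in the tagged plants than in the transgenic untagged plant, and neither passed the test. NARK, at 50.4 ± 11.3 normalized counts in the 2 tagged plants against 14.9 in the transgenic untagged plant, had a log2 fold change of 1.75 ± 0.54 (95% interval 0.46 to 3.04). Its p was 0.0154 unadjusted and 0.402 adjusted over all genes by edgeR. An unadjusted p under 0.05 with a higher level in tagged plants was found at 5.9% of the 39528 tested genes, and with a lower level at 3.57%. A log2 fold change at least as far from 0 as that of NARK was found at 1.44% of them. Both tagged plants lay above the transgenic untagged plant in NARK, as at 34.5% of tested genes, with both below it at 37.3%. In CLV1A the sides overlapped. CLV1A had a log2 fold change of 0.47 ± 0.47 (-0.65 to 1.59) and an edgeR adjusted p of 0.802. Of the 2 members tested 0 were called, against 0.00506% of all tested genes called higher and 0.00506% called lower. A single untagged library stands on one side here and is taken to vary as much as the tagged pair does. These libraries are also part of the comparison above, so the 2 sets of values are not independent.

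Between transgenic and untransformed plants, NARK was the member that passed the test. NARK averaged 38.6 ± 22 normalized counts in the transgenic plants (SD, n = 3), against 282 in the untransformed plant, and it fell by 2.85 ± 0.53 on the log2 scale (95% interval -4.12 to -1.57, edgeR adjusted p = 0.00527). CLV1A averaged 71.4 ± 27 in the transgenic plants (SD, n = 3), against 133 in the untransformed plant. Its log2 fold change was -0.89 ± 0.42 (-1.88 to 0.10) with an edgeR adjusted p of 0.118. The untransformed side is 1 plant, so these p-values take their spread from the 3 transgenic plants alone. Without tagged 2 the value of CLV1A was -1.23 ± 0.33, with an edgeR adjusted p of 0.0257, so the call on CLV1A rested on that plant. Of the 2 members tested 1 was called lower, where 25.8% of all 40884 tested genes were called lower and 23.3% higher. A fall as large as that of NARK or larger was found at 4.96% of tested genes, and one as large as that of CLV1A at 21.1%. Whether NARK fell further than CLV1A was not tested over plants. In tissue of many cell types, fewer cells that express a gene and less RNA per cell cannot be told apart. With 1 untransformed plant, transgene status cannot be told apart from any other property of that plant or its library.

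**Figure D3:**
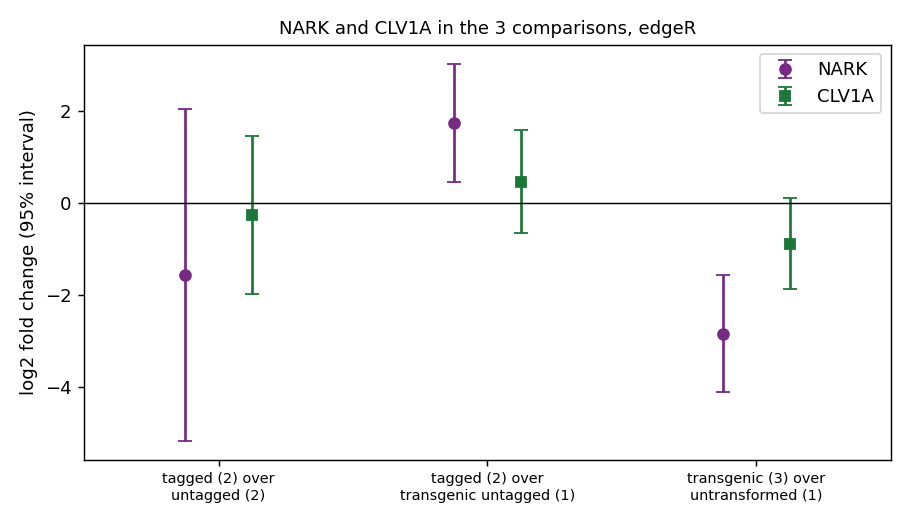
Log2 fold changes of NARK and CLV1A (vertical axis) with 95% intervals from edgeR in the 3 comparisons, with the number of plants on each side under the axis. The sign of NARK is negative in the comparisons that hold the untransformed plant and positive, at 1.75, in the one without it.

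**Figure D4:**
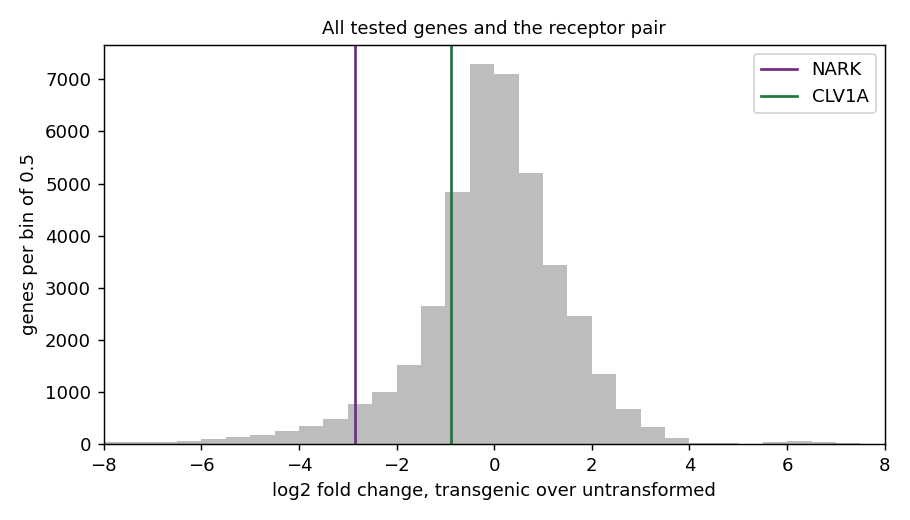
Number of tested genes (vertical axis) by log2 fold change of transgenic over untransformed plants (horizontal axis, bins of 0.5), with lines at NARK and CLV1A. NARK at -2.85 lies in the lower tail, CLV1A at -0.89 within the bulk, and 126 genes beyond a log2 size of 8 lie outside the axis.

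The 2 genes whose profile over the 4 plants was most like that of NARK were Glyma.13G053700 and Glyma.12G014200. Likeness was the Euclidean distance between centred values of log2(normalized count + 1), over 4 libraries and 38823 other tested genes. The distances were 0.243 and 0.275, against a median of 3.03 over those genes. Genes picked as the nearest, here and for CLV1A below, lie under the median by that choice. Glyma.13G053700 had 14.2, 22.6 and 4.24 normalized counts in tagged 1, tagged 2 and the transgenic untagged plant, against 113 in the untransformed plant. Glyma.12G014200 had 194, 266 and 78.5 in the same transgenic plants, against 1085 in the untransformed plant. CLV1A was at a distance of 2.11 from NARK. The 2 genes most like CLV1A were at 0.0654 and 0.0719, against a median of 1.3 over the other genes, so NARK was farther from CLV1A than the median gene while CLV1A was nearer to NARK than the median gene. The order shown by NARK, with the untransformed plant above both tagged plants and these above the transgenic untagged plant, held at 17.8% of 38824 tested genes, so it was a common profile in these libraries.

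The genes numbered next to NARK did not share one direction. Of the 5 identifiers on each side, 10 had reads and 7 were tested between transgenic and untransformed plants, with log2 fold changes from -2.95 to 2.59. Of these, 2 were called lower and 1 was as low as NARK, where 25.8% and 4.96% of all tested genes were. Around CLV1A, 9 of 10 neighbours were tested, from -2.89 to 2.56. Of these, 3 were called lower and 3 were as low as CLV1A, where 25.8% and 21.1% of all tested genes were.

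The Nod factor receptors were at or near 0 at this depth. NFR1a had 3 and 0 reads in tagged 1 and tagged 2, against 0 and 3 reads in untagged 1 and untagged 2, the untransformed plant. These are 0.061 CPM (counts scaled to a library total of 1000000) in tagged 1 (exact Poisson 95% interval 0.0126 to 0.178) and 0.0878 in the untransformed plant (0.0181 to 0.257). The plants with reads came from both groups, and the groups overlapped. Over all libraries its 6 reads gave 0.0422 CPM (0.0155 to 0.0918), and 21.3% of all genes had at most 6 reads in total. NFR1a did not pass the filter on low counts. NFR5a, the partner of NFR1 in Nod factor perception, had 0 reads in every plant. A count of 0 allows up to 3 reads, a one-sided 95% limit unlike the two-sided intervals above, which is 0.061 and 0.108 CPM in tagged 1 and tagged 2, against 0.0969 and 0.0878 CPM in untagged 1 and untagged 2.

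The leghemoglobins were not detectable apart from a single read. Glyma.10G199100, Glyma.10G199000 and Glyma.10G198800 had 0 reads in both tagged and both untagged plants. Glyma.20G191200 had 0 and 1 reads in tagged 1 and tagged 2, against 0 reads in each untagged plant, and 16.7% of all genes had at most 1 read in total. The 4 leghemoglobins together thus took 1 of 142255260 reads, or 0.00703 CPM (exact Poisson 95% interval 1.8e-04 to 0.0392). NFR5a and 3 leghemoglobins were among the 14.7% of all genes with 0 reads in all 4 libraries. The identifier between the leghemoglobins on chromosome 10, Glyma.10G198900, also had 0 reads in every plant. Genes beside them were read: each chromosome 10 leghemoglobin has 8 neighbours that are not members. Of these, 6 or 7 had reads and 4 or 5 averaged 50 or more normalized counts. The chromosome 10 members lie close together by identifier, so these sets of neighbours overlap. Around Glyma.20G191200, 8 of 10 neighbours had reads. With 14.7% of all genes at 0 reads, neighbours with reads were common anywhere. Leghemoglobin genes are close copies of one another, and reads that match several copies could have been dropped in counting. With the setting for such reads not given, the limits apply to reads assigned to 1 gene.

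**Figure D5:**
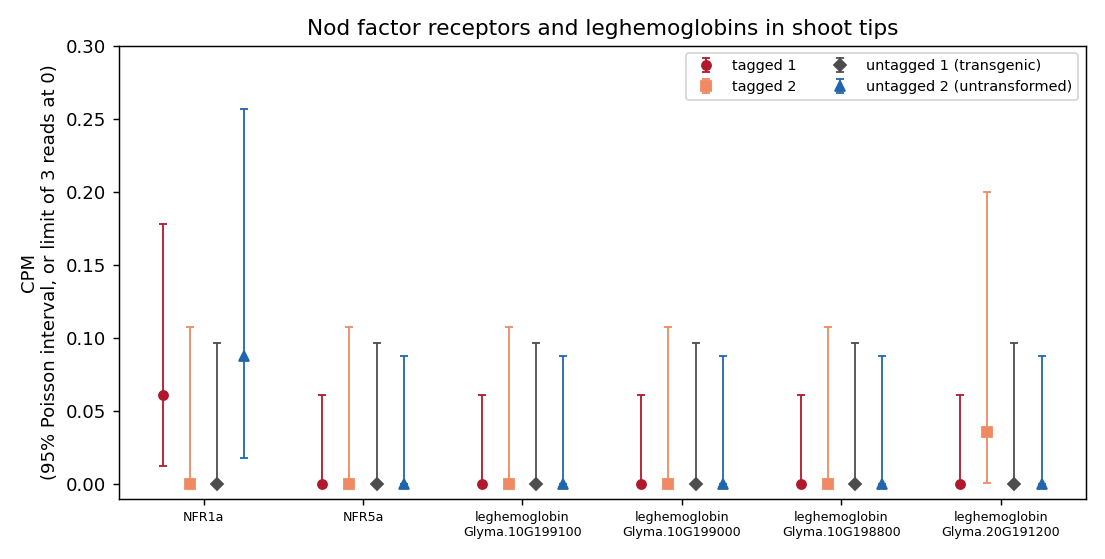
CPM (vertical axis) of the Nod factor receptors and leghemoglobins in each plant, with exact Poisson 95% intervals, or for a count of 0 a bar up to the limit of 3 reads. NFR1a has reads in tagged 1 and in the untransformed plant, Glyma.20G191200 has 1 read in tagged 2, and all other points are at 0.

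Soybean genes listed in the RefSeq table under NFR1B, NFR5B, SYMRK-ALPHA, SYMRK-BETA and UR9, a nodule uricase, belong to the same symbiosis. They carry no identifier of the form used in the files, and no value is given for them.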

How the data were processed

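Per the labels, RNA of shoot tips was sequenced in 4 libraries. The submitters' processing notes list HISAT2 2.1.0 and HTSeq 0.6.1, with CASAVA 1.8 and DESeq2. The sources used here do not give the genome build, annotation, strand setting or treatment of reads with several matches. The authors deposited raw read counts per gene, and a second table of scaled signal in which a library's counts share 1 divisor. Multiplied by median-of-ratios factors recomputed here, the deposited values equalled the counts within 5.2e-05. A fold ratio deposited by the authors for 1 other gene was not used.

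All genes were tested in R 4.3.3 with edgeR 4.0.16 (quasi-likelihood F test), with TMM scaling, edgeR's default low-count filter and Benjamini-Hochberg adjustment at 0.05. Standard errors are the absolute log2 change divided by the square root of F. Alternatives were RLE scaling, limma-voom (limma 3.58.1), DESeq2 1.42.0, no filter, a replicate block, a transgenic covariate, CPM levels, and leaving out libraries. DESeq2 was run on the filtered genes. The tests were tested on simulated data. There, plants of a side differed only in depth and by a spread set equal for all genes. The difference between the transgenic and the untransformed untagged plant was not imitated, so the simulation does not show how the tests perform on it. Library pairs differed by a chi-square of at least 17.6 per degree of freedom, so none was the same library sequenced again. The value does not test whether libraries shared RNA. P-values take their spread from single plants of a side. In tagged against untagged plants this spread includes the difference between the transgenic and the untransformed untagged plant. Where a side is a single plant, that plant adds no spread.

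The rule that gives the members uses identifiers only, but members and lists were chosen with earlier results of these data known. Genes named are the 8 members, the identifier between the chromosome 10 leghemoglobins, and the 2 genes nearest in profile to NARK. Those nearest to CLV1A are given by distance only, because identifiers without names were limited. The neighbour counts were chosen after values were seen. Planned marker and pathway lists could not be resolved to identifiers.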

Additional observations from a re-analysis of the deposited data

How the results depend on the processing

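Between transgenic and untransformed plants NARK stayed lower and past the threshold under every alternative run, from -3.21 to -2.48 on the log2 scale. CLV1A stayed lower, from -1.23 to -0.73, and passed only without tagged 2. Leaving out 1 transgenic library gave 7815 to 9669 genes higher, 9128 to 10419 lower and 1 to 2 members called.

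In tagged against untagged plants no member was called under DESeq2, limma-voom, RLE scaling, no filter, the replicate block or the transgenic covariate. DESeq2 gave 4 genes higher and 15 lower. The covariate gave 2 genes higher and turned NARK to 1.74 and CLV1A to 0.47. With limma-voom NARK was at -0.37. With the replicate block NARK was at -0.46 and CLV1A at -0.20, with 0 genes higher and 0 lower. The correlation over genes of the tagged 1 to tagged 2 difference with the untagged 1 to untagged 2 difference was -0.0524. The second difference is also that of the transgenic and the untransformed plant. The value therefore cannot decide whether the replicate numbers pair plants. Leaving out 1 library gave 0 to 9669 genes higher, 0 to 10419 lower, 0 to 1 members, -2.48 to 1.75 for NARK and -0.75 to 0.47 for CLV1A. The upper counts and the called member came from leaving out untagged 1. Without untagged 2, NARK turned to 1.75 and CLV1A to 0.47. Without tagged 1, CLV1A turned to 0.13.

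Among the transgenic plants no member was called by any alternative. DESeq2 gave 212 genes higher and 21 lower, limma-voom 0 and 0, RLE scaling 5 lower, and no filter 318 higher and 43 lower. Libraries could not be left out there, since no residual degrees of freedom remained. In tagged against untagged and in transgenic against untransformed plants, CPM in place of normalized counts moved the ratios of mean levels by less than 1 SD. That SD was taken over the tagged or the transgenic plants. With CPM, the ratio of transgenic plants to the untransformed plant went from 0.14 to 0.17 for NARK and from 0.54 to 0.65 for CLV1A. That of tagged to untagged plants went from 0.34 to 0.41 for NARK and from 0.84 to 0.95 for CLV1A. The ratios were not computed for the comparison among the transgenic plants. The cause of these changes was not tested. Depth limits the other 6 members, whose reads ran from 0 to 3 per library.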
